A study of Mus musculus with 24 samples.

Results

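The genes described here mark lymphocytes: T cells, natural killer (NK) cells, B cells and antibody-secreting plasma cells. They are 43 genes out of 56205 gene rows in a count table of mouse liver RNA sequencing, taken by their symbols, and each of the 43 had 1 row. Poly(A) RNA came from whole livers of C57BL/6J mice, 12 on a methionine-choline deficient (MCD) diet and 12 on a control diet, each for 20 weeks. The animals were of both sexes in equal numbers per diet, no library carries a sex, litter or batch in its labels, and by the study's methods the MCD chow had a high fat content. Each library was taken from its own animal. The labels name no engineered allele in either group. An MCD diet removes precursors that hepatocytes need to export fat and is used to provoke steatohepatitis with scarring. Lymphocytes are a minority among hepatocytes, and in bulk RNA fewer cells of a type and less RNA per cell cannot be told apart.

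T cells recognise peptides through a T cell receptor whose α and β chains are carried by the CD3 and ζ chains, and CD4 or CD8 fixes which MHC class is read. Activated T cells and NK cells kill by releasing perforin and granzymes and recruit other leukocytes with chemokines such as CCL5. B cells carry membrane immunoglobulin with the CD79 pair, and their plasma cell progeny secrete immunoglobulin, with IgA and IgM joined by the J chain. The normal mouse liver is known for resident NK and NKT cells, and CD8 T cells are known to gather in steatohepatitis.

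Promoter sequences are shown for T cell and cytotoxic members on which the results below turn. Factors of the RUNX family, which read TGTGGT, and of the ETS family, which read GGAAGT, are known to act on such genes. Each runs from 250 bases before to 50 bases after an annotated start site, from RefSeq on GRCm38.p6, written 5′ to 3′ on the gene's strand, with matches on either strand in capitals (ACCACA and ACTTCC are the reverse complements). Cd3d (chr9:44981536-44981835, plus strand) and Cd3e (chr9:45009562-45009861, minus strand) encode CD3 chains. Lck (chr4:129573592-129573891, minus strand) and Zap70 (chr1:36764265-36764564, plus strand) encode the kinases next to the receptor, each at 1 of its several listed start sites. Havcr2 (chr11:46454681-46454980, plus strand) encodes the checkpoint receptor TIM-3. Nkg7 (chr7:43436888-43437187, plus strand) and Prf1 (chr10:61297586-61297885, plus strand) encode a granule protein and perforin.
Cd3d: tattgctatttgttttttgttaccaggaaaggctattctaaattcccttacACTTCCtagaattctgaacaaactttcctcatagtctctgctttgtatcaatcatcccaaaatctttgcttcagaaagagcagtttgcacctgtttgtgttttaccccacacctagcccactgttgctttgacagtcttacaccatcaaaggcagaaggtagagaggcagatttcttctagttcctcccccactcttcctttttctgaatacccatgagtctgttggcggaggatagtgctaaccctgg
Cd3e: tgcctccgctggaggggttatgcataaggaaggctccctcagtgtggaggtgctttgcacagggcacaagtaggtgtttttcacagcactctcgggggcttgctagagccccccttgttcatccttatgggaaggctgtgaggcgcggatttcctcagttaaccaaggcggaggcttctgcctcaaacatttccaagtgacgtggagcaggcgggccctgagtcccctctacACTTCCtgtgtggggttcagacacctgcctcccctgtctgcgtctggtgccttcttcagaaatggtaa
Lck: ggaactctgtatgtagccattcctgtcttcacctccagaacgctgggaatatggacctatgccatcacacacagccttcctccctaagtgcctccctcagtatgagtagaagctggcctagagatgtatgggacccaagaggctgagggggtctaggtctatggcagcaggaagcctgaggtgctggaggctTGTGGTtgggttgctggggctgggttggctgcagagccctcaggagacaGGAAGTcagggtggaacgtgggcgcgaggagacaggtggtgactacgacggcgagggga
Zap70: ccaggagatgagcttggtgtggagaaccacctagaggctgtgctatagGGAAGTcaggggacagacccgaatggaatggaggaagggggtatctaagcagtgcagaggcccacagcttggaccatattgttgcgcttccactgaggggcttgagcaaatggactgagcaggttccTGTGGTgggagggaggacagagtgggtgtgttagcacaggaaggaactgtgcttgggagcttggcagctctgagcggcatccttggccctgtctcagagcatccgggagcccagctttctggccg
Havcr2: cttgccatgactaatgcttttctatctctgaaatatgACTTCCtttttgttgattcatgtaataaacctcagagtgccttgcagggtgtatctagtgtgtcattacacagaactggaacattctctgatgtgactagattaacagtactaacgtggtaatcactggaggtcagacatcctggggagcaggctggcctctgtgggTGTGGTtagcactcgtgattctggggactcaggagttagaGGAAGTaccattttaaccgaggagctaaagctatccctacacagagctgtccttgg
Nkg7: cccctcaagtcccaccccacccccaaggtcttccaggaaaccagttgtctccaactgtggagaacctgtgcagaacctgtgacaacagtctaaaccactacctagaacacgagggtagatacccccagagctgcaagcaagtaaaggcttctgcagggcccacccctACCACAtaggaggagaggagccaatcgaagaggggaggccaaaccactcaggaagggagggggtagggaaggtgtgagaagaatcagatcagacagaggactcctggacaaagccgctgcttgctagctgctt
Prf1: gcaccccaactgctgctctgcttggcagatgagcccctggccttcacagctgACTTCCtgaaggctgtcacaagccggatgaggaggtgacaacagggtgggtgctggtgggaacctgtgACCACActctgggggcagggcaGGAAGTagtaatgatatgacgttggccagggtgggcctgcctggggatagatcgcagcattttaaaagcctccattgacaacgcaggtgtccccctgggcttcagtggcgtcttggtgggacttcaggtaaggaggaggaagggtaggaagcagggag
RefSeq promoters were found for 28 of the 43 members, 33 promoters in all. TGTGGT was in 12 of them (36.4%) and in 16.8% of all 32851 promoters of the same length. GGAAGT was in 13 (39.4%) against 23.8% of all. The GATA motif AGATAA was in 3 (9.09%) against 11.2%, and the octamer ATTTGCAT, which OCT factors read in B cell genes, was in 0 against 1.74%. The 2 sets were not matched for base composition and some genes have several promoters, so the shares are a description of letters in these windows. The promoter of Cd8a and the 2 other listed start sites of Zap70 held neither TGTGGT nor GGAAGT, and the other listed start site of Lck held GGAAGT alone. Of the 7 genes shown, Cd3d, Cd3e, Lck, Havcr2 and Nkg7 were called higher in MCD livers, as were 19.2% of all tested genes. Zap70 was not called and Prf1 was too low for the low-count filter. None of the genes called higher passed that filter on control libraries alone, and a link between motif and call was not tested.

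Total counts ran from 16793207 to 24915175 in control libraries and from 16388650 to 24577848 in MCD libraries. Levels are given as CPM (counts scaled to library size with TMM factors), where a count of 3, taken as the floor, corresponds to 0.109 to 0.227 CPM and covers counting error only. The TMM factors did not overlap between diets (0.642 to 0.973 in control, 1.07 to 1.26 in MCD). With total counts alone in place of TMM the median over all tested genes moved, in log2, from -0.10 to 0.27. Fold changes below are MCD against control on the TMM scale.

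Of the 31 T cell and cytotoxic members, 15 were called higher in MCD livers, 1 was lower and 11 were too low to be tested, and no plasma cell member passed the test. A gene was tested where it exceeded 0.51 CPM in at least 12 of the 24 libraries, and 29 of the 43 members were. A gene counted as changed at an edgeR quasi-likelihood FDR of 0.01 or less (Benjamini-Hochberg over 14109 genes) with an absolute log2 fold change above 0.5. By that rule 17 of the 29 were higher, 1 was lower and 11 were not called, where 19.2% of all tested genes were higher and 19.1% lower. Their median log2 fold change was 1.005 and that of all tested genes -0.10. These shares are no evidence of direction, because 22 of the 29 did not exceed that level in all 12 control libraries and entered the test only with MCD libraries counted in. Of the 7 that did, 2 were higher (Klrk1 and Cd79b) and 0 were lower, and the 2 T cell members among them (Zap70 and Tox) were not called. For 5 tested members (Cd3e, Cd8a, Lck, Havcr2 and Ccl5) every MCD library lay above every control library, which held for 9.5% of all tested genes. The filter limit holds for these 5 as well, since none of them passed on control libraries alone.

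**Figure D1:**
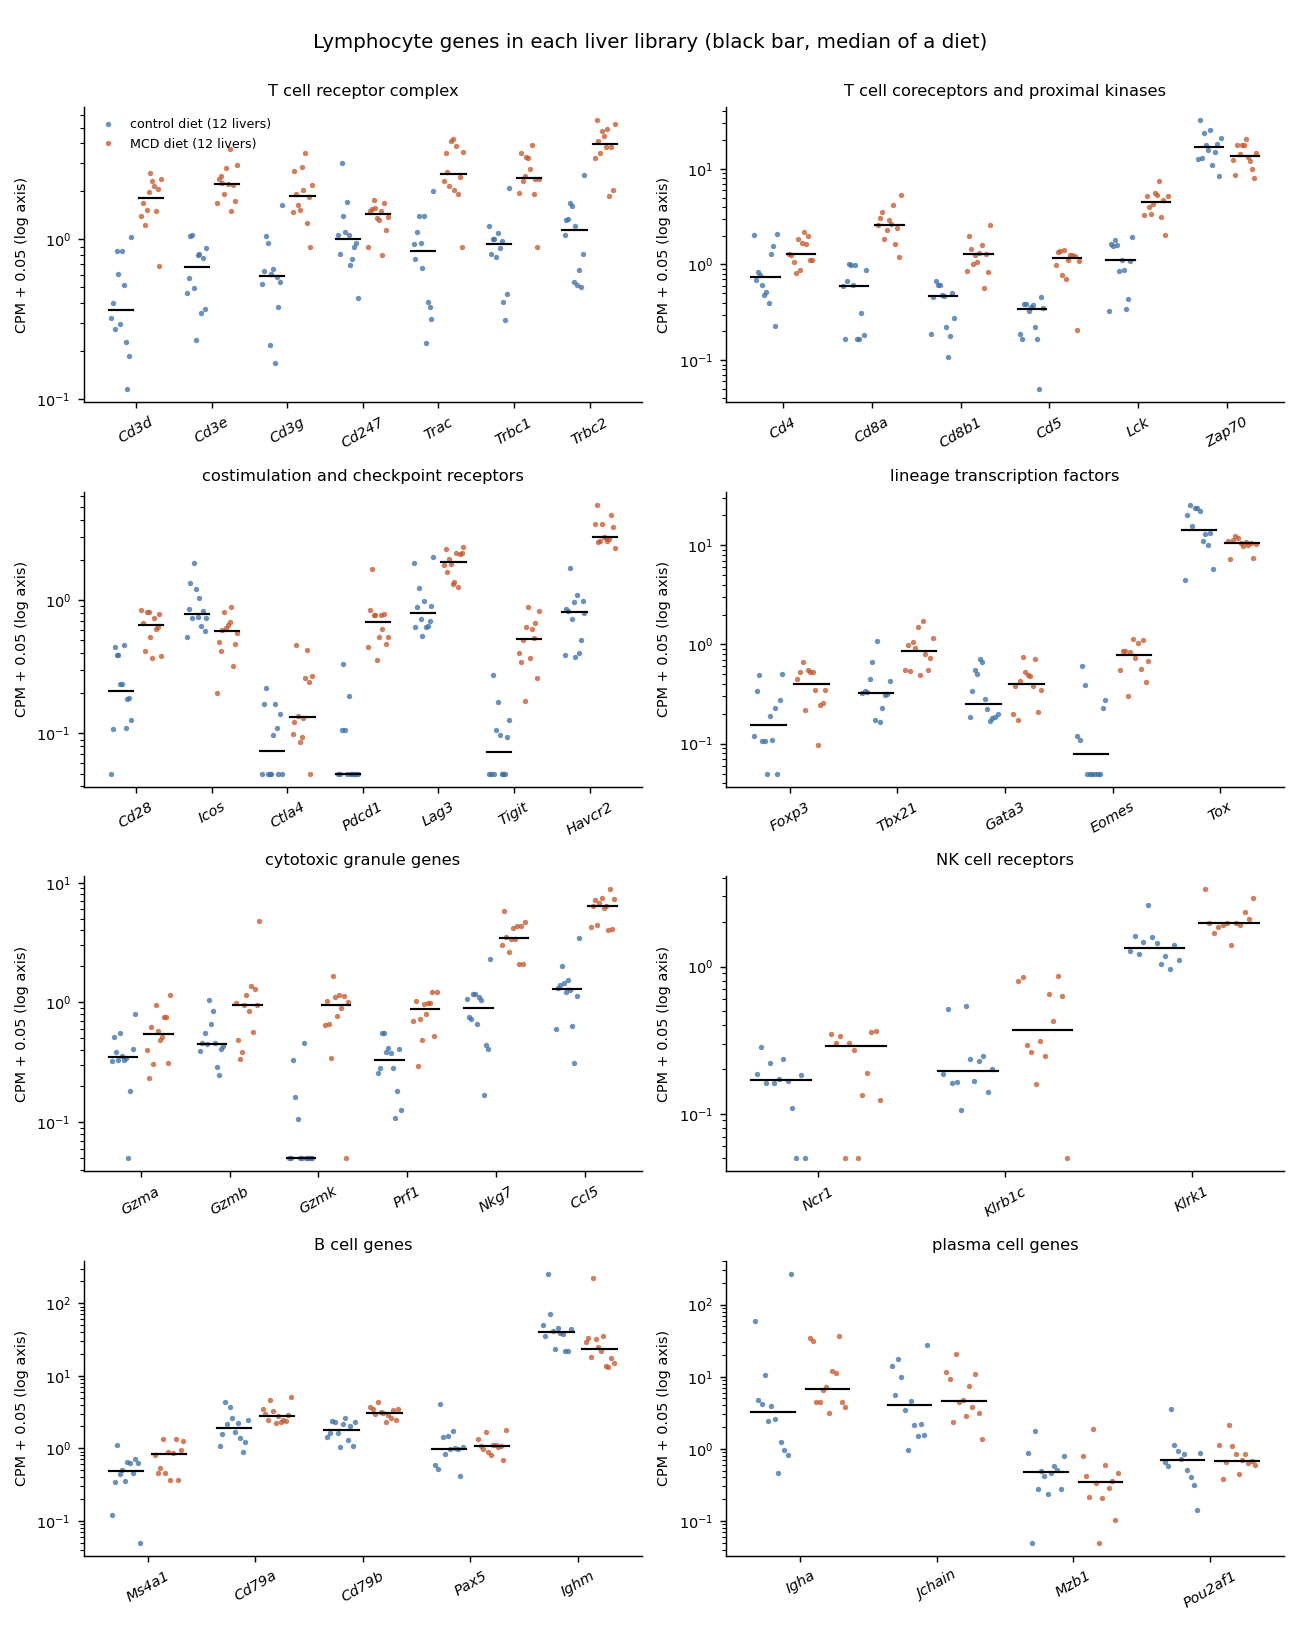
Level of each of the 43 genes in each library, as CPM plus 0.05 on a log axis, in 8 panels by role; each point is 1 liver (12 control in blue, 12 MCD in orange) and the black bar is the median of a diet. Cd3e, Cd8a, Lck, Havcr2 and Ccl5 show separate point clouds, while the B cell and plasma cell panels overlap, with single livers far above the rest for Ighm and Igha.

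Of the 7 genes of the T cell receptor complex, 6 rose in MCD livers, by 1.56 to 2.05 on the log2 scale, and the role's median was 1.74, where 19.2% of all tested genes were higher. None of the 7 passed the filter on control libraries alone, and a filter blind to diet kept 4 of them, of which 3 rose, so the count is no evidence of direction. Cd3e, which encodes the CD3 ε chain, lay between 0.184 and 1.02 CPM in control livers (median 0.620) and between 1.45 and 3.66 CPM in MCD livers (median 2.19). All 12 MCD livers were above every control liver, in raw counts 31 to 86 against 3 to 18. The log2 difference was 1.91 (SE 0.22, 95% confidence interval 1.45 to 2.36, edgeR FDR 4.08e-08). Trbc2, a constant region of the β chain, ran from 0.455 to 2.50 CPM in control livers (median 1.09) and from 1.82 to 5.53 CPM in MCD livers (median 3.95). In 10 MCD livers the level was above every control liver, and the fold change was 1.84 (SE 0.25, edgeR FDR 4.5e-07). Cd3d, the CD3 δ chain, ran from 0.0651 to 0.984 CPM in control livers (median 0.311) and from 0.630 to 2.54 CPM in MCD livers (median 1.78). The groups overlapped in 1 MCD liver, replicate 11, and the fold change was 2.05 (SE 0.30, edgeR FDR 1.43e-06). Trbc1, the other β constant region, had 0.260 to 2.04 CPM in control livers (median 0.885) and 0.840 to 3.87 CPM in MCD livers (median 2.39). With 9 MCD livers above every control liver, it rose by 1.56 (SE 0.25, edgeR FDR 6.35e-06). Trbc1 and Trbc2 share 40.3% and 43.8% of their exonic 51-base words with other genes, so the split of reads between them is uncertain. Trac (1.74, FDR 1.77e-05), the α constant region, and Cd3g (1.68, FDR 1.36e-05) rose as well.

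The remaining chain, Cd247, encodes CD3 ζ, which NK cells also use. It ran from 0.378 to 2.97 CPM in control livers (median 0.959) and from 0.748 to 1.73 CPM in MCD livers (median 1.39), and no MCD liver lay above the highest control liver. The log2 fold change was 0.25 (95% confidence interval -0.22 to 0.73, edgeR FDR 0.349). Its exons overlap those of Pou2f1 on the opposite strand, and whether the counting used strand is not given in the sources used here. Exons of Cd3e, Gata3, Eomes, Tox and Pax5 overlap annotated genes on the opposite strand too. Summed over the 7 genes, the receptor complex had 2.99 to 10.3 CPM in control livers (median 5.10) and 7.93 to 23.2 CPM in MCD livers (median 16.1). MCD replicate 11, the lowest of its diet, was also the smallest library, with 16388650 counts.

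Among coreceptors and receptor-proximal kinases, the CD8 genes and Lck rose (3 of 5 tested, where 19.2% of all tested genes were higher) and Cd4 and Zap70 were not called. Of the 5 only Zap70 passed the filter on control libraries alone, and a filter blind to diet kept Lck, Cd4 and Zap70. Lck, the kinase bound to CD4 and CD8, ran from 0.273 to 1.89 CPM in control livers (median 1.05) and from 1.99 to 7.45 CPM in MCD livers (median 4.46). No MCD liver overlapped the controls, and Lck rose by 2.02 on the log2 scale (SE 0.26, edgeR FDR 2.33e-07). Cd8a, the CD8 α chain, ran from 0.117 to 0.962 CPM in control livers (median 0.549) and from 1.16 to 5.24 CPM in MCD livers (median 2.56). The diets again did not overlap, with a fold change of 2.42 (SE 0.33, edgeR FDR 4.31e-07). Cd8b1, the CD8 β chain, had 0.0590 to 0.616 CPM in control livers (median 0.413) and 0.514 to 2.51 CPM in MCD livers (median 1.22). Only 1 MCD liver fell within the control range, and the rise was 1.82 (SE 0.29, edgeR FDR 4.58e-06). Cd4, the helper T cell coreceptor that some dendritic cells also carry, ran from 0.179 to 2.04 CPM in control livers (median 0.688) and from 0.759 to 2.13 CPM in MCD livers (median 1.22). A single MCD liver exceeded every control liver, and its fold change of 0.61 was not called (95% confidence interval -0.003 to 1.22, edgeR FDR 0.0762). With total counts alone Cd4 was called higher, at 1.03.

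Zap70, the kinase that binds the phosphorylated CD3 and ζ chains, stood apart in level. It ran from 8.42 to 31.9 CPM in control livers (median 16.7) and from 8.03 to 20.3 CPM in MCD livers (median 13.7), with 1 MCD liver below every control liver and none above. Per kilobase of exon its mean was 5.92 CPM in control livers, while that of Cd3e was 0.148 CPM and that of Lck 0.369 CPM. In MCD livers the same means were 4.62, 0.557 and 1.51 CPM. The fold change of Zap70 was -0.36 (SE 0.19, edgeR FDR 0.0968) and became 0.01 with total counts alone. Cd5, which dampens receptor signalling, had 0 to 9 counts in control livers and 3 to 38 in MCD livers and was not tested under the filter.

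**Figure D2:**
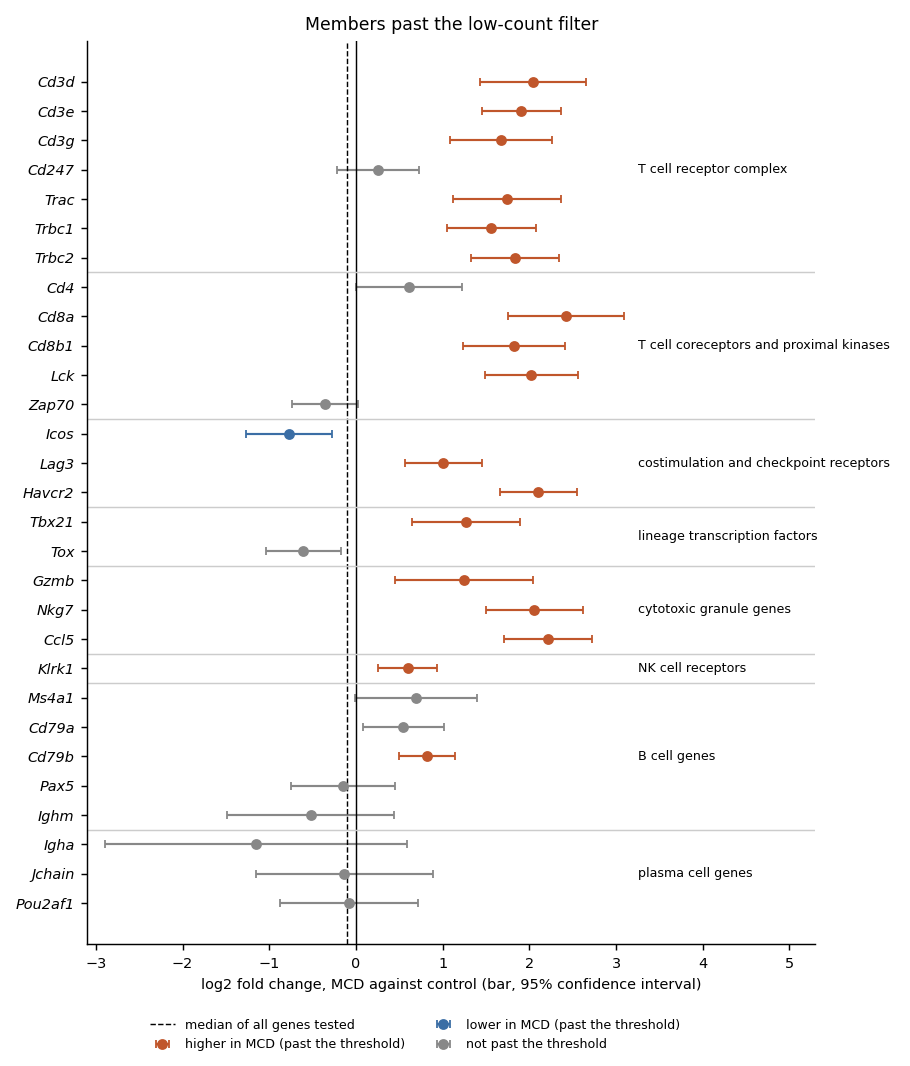
Log2 fold change of MCD against control for the 29 tested members, grouped by role, with 95% confidence intervals from edgeR; orange is higher, blue lower and grey not past the threshold, and the dashed line is the median of all tested genes at -0.10. T cell receptor, CD8 and cytotoxic genes lie to the right between 1.25 and 2.42 except Cd247, while intervals of the plasma cell genes cross 0.

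Of the 7 costimulatory and checkpoint receptors 3 were tested, of which 2 rose and 1 fell, against 19.2% and 19.1% of all tested genes, and none of the 3 passed the filter on control libraries alone. Havcr2 encodes TIM-3, an inhibitory receptor of exhausted T cells that macrophages and dendritic cells also carry. Its level was 0.326 to 1.70 CPM in control livers (median 0.771) and 2.40 to 5.13 CPM in MCD livers (median 2.92). The diets did not overlap, and the rise of 2.10 in log2 (SE 0.22, edgeR FDR 5.17e-09) had the lowest FDR of all tested members. Lag3, an inhibitory receptor that binds MHC class II, ran from 0.492 to 2.04 CPM in control livers (median 0.755) and from 1.22 to 2.44 CPM in MCD livers (median 1.90). In 5 MCD livers it was above every control liver, and it rose by 1.005 (SE 0.22, edgeR FDR 0.000245). Icos, a costimulator of activated helper T cells, ran from 0.477 to 1.84 CPM in control livers (median 0.739) and from 0.149 to 0.842 CPM in MCD livers (median 0.533). The ranges overlapped in part, and raw counts had a median of 13 in both diets. On the TMM scale Icos fell by 0.78 (SE 0.24, edgeR FDR 0.00696), and this call was lost with no filter (FDR 0.0247), with DESeq2 (FDR 0.0111), with relative log expression (FDR 0.0133) or upper-quartile scaling (FDR 0.0288) and with total counts alone (-0.43, FDR 0.151). It was also lost in 14 fits without 1 library each, control replicates 3, 5, 6 and 8 and all MCD replicates but 5 and 9, at an edgeR FDR of 0.0106 to 0.0216.

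The other 4 receptors of this role were too low for the filter. Cd28, the main costimulator of naive T cells, had 0 to 7 counts in control livers (median 3) and 8 to 21 in MCD livers (median 14.5), so the ranges did not overlap in raw counts, though 9 MCD livers exceeded every control liver in CPM. Pdcd1 encodes the checkpoint receptor PD-1. It was at or under the floor in 11 of 12 control livers, with 5 counts in the other, and had 7 to 41 counts in MCD livers (median 15). Every MCD liver was above every control liver in CPM (0.307 to 1.67 against 0 to 0.283). Tigit, another inhibitory receptor, had 0 to 4 counts in control livers and 3 to 21 in MCD livers. Ctla4, the inhibitory counterpart of CD28, was at or under the floor in 12 of 12 control livers and in 7 of 12 MCD livers and is not resolved at this depth. Summed over the 7 receptors, control livers held 1.65 to 4.19 CPM and MCD livers 6.00 to 9.71 CPM.

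When no filter was applied, 27553 genes were tested, and 24 of the 43 members were higher and 0 lower, against 13.5% and 9.62% of all genes. The 7 gained were Pdcd1 (3.70, FDR 7.33e-07), Gzmk (3.44, FDR 2.23e-05), Tigit (3.16, FDR 4.62e-06), Eomes (2.53, FDR 0.000163), Cd5 (2.09, FDR 4.56e-06), Cd28 (1.58, FDR 0.000486) and Prf1 (1.47, FDR 0.000257). Their control counts lie near the floor, so the sizes of these fold changes depend on the prior count. Not called in that fit were Ctla4 (1.45, FDR 0.0575), Foxp3 (1.10, FDR 0.053), Klrb1c (1.12, FDR 0.0474), Gzma (0.74, FDR 0.0955), Ncr1 (0.66, FDR 0.291), Gata3 (0.33, FDR 0.467) and Mzb1 (-0.21, FDR 0.772), all by edgeR. A filter blind to diet kept 18 members, of which 9 were higher and 0 lower, where 17.7% of genes were higher and 15.5% lower.

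Of the 5 lineage transcription factors, Tbx21 and Tox were tested and Tbx21 rose, where 19.2% of all tested genes were higher. Tbx21 exceeded the filter level in 2 control and 11 MCD libraries, while Tox did so in all libraries and was not called. Tbx21 (T-bet), which drives the type 1 programme, ran from 0.117 to 1.02 CPM in control livers (median 0.276) and from 0.437 to 1.66 CPM in MCD livers (median 0.810). In 3 MCD livers it exceeded every control liver, and it rose by 1.27 on the log2 scale (SE 0.30, edgeR FDR 0.000763). Eomes, required for memory CD8 T cells and mature NK cells, had 0 to 10 counts in control livers (median 0.5) and 6 to 27 in MCD livers (median 18.5), and 8 MCD livers lay above every control liver. Gata3, the factor of type 2 helper cells, had 2 to 12 counts in control livers (median 4) and 3 to 19 in MCD livers (median 9), with near complete overlap. Foxp3, which defines regulatory T cells, had 0 to 8 counts in control livers (median 2) and 1 to 15 in MCD livers (median 8), and 14.6% of its exonic 51-base words also lie in other genes. Its exons overlap those of Flicr on the same strand and of Ccdc22 and Ppp1r3f on the opposite strand, so reads of these genes may not be told apart from its own.

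Tox, a factor of T cell development and exhaustion, resembled Zap70 in level. It ran from 4.37 to 25.4 CPM in control livers (median 14.4) and from 7.28 to 12.3 CPM in MCD livers (median 10.6). MCD livers lay inside the control range, with a coefficient of variation of 14.9% against 46.3% in control livers. The fold change of -0.61 (SE 0.21, edgeR FDR 0.0145) was not called, but Tox was called lower with a sex-linked expression score as covariate (-0.50, FDR 0.0085) and without control replicate 1, 10 or 12 (-0.65 to -0.67).

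Of the 6 cytotoxic members 3 were tested and rose, where 19.2% of all tested genes were higher. None of the 3 passed the filter on control libraries alone, and a filter blind to diet kept 2 of them, so the count is no evidence of direction. Ccl5, a chemokine of T cells, NK cells and also macrophages, ran from 0.260 to 3.41 CPM in control livers (median 1.25) and from 3.98 to 8.74 CPM in MCD livers (median 6.33). Every MCD liver was above every control liver, and it rose by 2.21 on the log2 scale (SE 0.25, edgeR FDR 1.95e-08). Per kilobase of exon Ccl5 had the highest MCD mean of the T and NK cell members, 6.32 CPM, against 5.65 CPM for Trbc2, 4.62 CPM for Zap70 and 3.92 CPM for Nkg7. Nkg7, a protein of cytotoxic granules, ran from 0.118 to 2.27 CPM in control livers (median 0.845) and from 2.05 to 5.78 CPM in MCD livers (median 3.40). Of 12 MCD livers, 10 were above every control liver, and it rose by 2.06 (SE 0.27, edgeR FDR 3.17e-07). Gzmb, granzyme B, ran from 0.195 to 1.004 CPM in control livers (median 0.402) and from 0.285 to 4.76 CPM in MCD livers (median 0.901). Its highest value came from MCD replicate 12, with 129 counts where the other MCD livers had 7 to 32. The rise of 1.25 (SE 0.39, edgeR FDR 0.00664) was 0.78 without that library (FDR 0.0206). The call was also lost with limma-voom (0.91, FDR 0.042) and without any 1 of control replicates 2, 4, 8, 9, 10 and 11 (edgeR FDR 0.0105 to 0.0123).

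The other granule genes were below the filter. Prf1, the pore-forming protein perforin, had 1 to 9 counts in control livers (median 5) and 6 to 32 in MCD livers (median 19.5), and 9 MCD livers exceeded every control liver. Gzmk, granzyme K, had 0 to 7 counts in control livers (median 0) and 0 to 44 in MCD livers (median 21), and 10 MCD livers exceeded every control liver. Gzma, granzyme A, had 0 to 10 and 5 to 30 counts (medians 5.5 and 11.5), with 2 MCD livers above the control range. Over the 5 granule genes, Ccl5 left out, control livers summed to 0.413 to 3.48 CPM (median 2.10) and MCD livers to 3.68 to 12.6 CPM (median 6.62), so the highest control liver, replicate 12, and the lowest MCD liver, replicate 11, lay close together.

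NK cell receptors were low, and 1 of 3 could be tested. Klrk1 encodes NKG2D, an activating receptor of NK cells and of CD8 T cells. It ran from 0.911 to 2.57 CPM in control livers (median 1.29) and from 1.35 to 3.29 CPM in MCD livers (median 1.92). In 2 MCD livers it exceeded every control liver, and the log2 difference was 0.60 (SE 0.16, edgeR FDR 0.00267), not past a log2 limit of 1. Klrb1c encodes NK1.1, the antigen used to sort NK cells in this strain, and had 1 to 8 counts in control livers (median 2) and 0 to 22 in MCD livers (median 7). Ncr1 encodes NKp46, an NK cell receptor not carried by most T cells, and had 0 to 4 counts in control livers (median 2) and 0 to 8 in MCD livers (median 5.5). Klrb1c and Ncr1 were at or under the floor in 9 and 10 of 12 control livers and in 2 and 5 of 12 MCD livers. With no filter they were not called (1.12, edgeR FDR 0.0474, for Klrb1c and 0.66, edgeR FDR 0.291, for Ncr1).

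Of the 5 B cell genes Cd79b passed the test, a share near the 19.2% of all tested genes called higher. Cd79b, a signalling chain of the B cell receptor, ran from 0.984 to 2.56 CPM in control livers (median 1.76) and from 2.27 to 4.35 CPM in MCD livers (median 3.06). For 10 MCD livers the level was above every control liver, and the log2 difference was 0.82 (SE 0.16, edgeR FDR 7.08e-05), below a log2 limit of 1. Its partner Cd79a ran from 0.846 to 4.31 CPM in control livers (median 1.86) and from 2.19 to 4.99 CPM in MCD livers (median 2.77). The highest control value was replicate 3, with 77 counts against 13 to 66 in the other control livers. Its fold change of 0.55 (SE 0.23, edgeR FDR 0.0372) was not called with all libraries and was called without control replicate 3 (0.73, FDR 0.00475). Ms4a1, the B cell antigen CD20, had 0 to 19 counts in control livers and 8 to 33 in MCD livers (0.69, edgeR FDR 0.0781). Pax5, the factor that maintains B cell identity, ran from 0.358 to 4.03 CPM in control livers (median 0.937) and from 0.630 to 1.74 CPM in MCD livers (median 1.01). Control replicate 3 was again the highest, with 72 counts, and the fold change was -0.15 (SE 0.29, edgeR FDR 0.673) with that library and 0.24 without it.

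The highest Ighm level came from a single liver in each diet. Ighm, the constant region of IgM, ran from 21.8 to 253 CPM in control livers (median 40.5) and from 13.2 to 226 CPM in MCD livers (median 23.1). Control replicate 3 had 4511 counts and MCD replicate 4 had 5351, while the other 22 libraries had 287 to 1274, and 6 MCD livers lay below every control liver in CPM. In log2 its fold change was -0.52 (SE 0.47, edgeR FDR 0.339) with all libraries, 0.06 without control replicate 3, -1.29 without MCD replicate 4 (FDR 0.00253) and -0.74 without both (FDR 0.00355, a choice made after seeing the data). Ighm was therefore called lower or not called depending on which of these libraries entered, and DESeq2 called it lower at -0.66 with all of them.

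Igha, the constant region of IgA, ran from 0.408 to 266 CPM in control livers (median 3.22) and from 3.10 to 36.3 CPM in MCD livers (median 6.77). Control replicate 12 had 3516 counts and replicate 1 had 864, against 7 to 186 in the other control livers and 78 to 935 in MCD livers, of which replicates 10, 1 and 2 were highest at 36.3, 34.7 and 31.0 CPM. The median was higher in MCD livers and the mean higher in control livers (29.7 against 13.2 CPM), and the fitted log2 fold change was -1.15 (SE 0.85, edgeR FDR 0.239) with all libraries and 0.74 without control replicate 12. Jchain, which links IgA and IgM into polymers, ran from 0.922 to 27.6 CPM in control livers (median 3.99) and from 1.33 to 20.5 CPM in MCD livers (median 4.52). Its 3 highest control livers were replicates 12, 3 and 1 and its highest MCD liver was replicate 4, the livers with high Igha or Ighm. The fold change was -0.13 (SE 0.50, edgeR FDR 0.828) with all libraries and 0.28 without control replicate 12.

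Pou2af1, a coactivator of immunoglobulin genes, ran from 0.0896 to 3.53 CPM in control livers (median 0.645) and from 0.327 to 2.11 CPM in MCD livers (median 0.634). Control replicate 3 and MCD replicate 4 were the highest of their diets, and the fold change was -0.08 (SE 0.39, edgeR FDR 0.864) with all libraries and 0.46 without control replicate 3. Mzb1, a chaperone of IgM assembly, had 0 to 31 counts in control livers and 0 to 44 in MCD livers, with the same 2 livers highest. It was not tested under the filter, and 53.4% of its exonic 51-base words lie in other genes. No plasma cell member passed the test in either direction, and the confidence intervals were wide, from -2.89 to 0.59 for Igha and from -1.16 to 0.89 for Jchain.

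**Figure D3:**
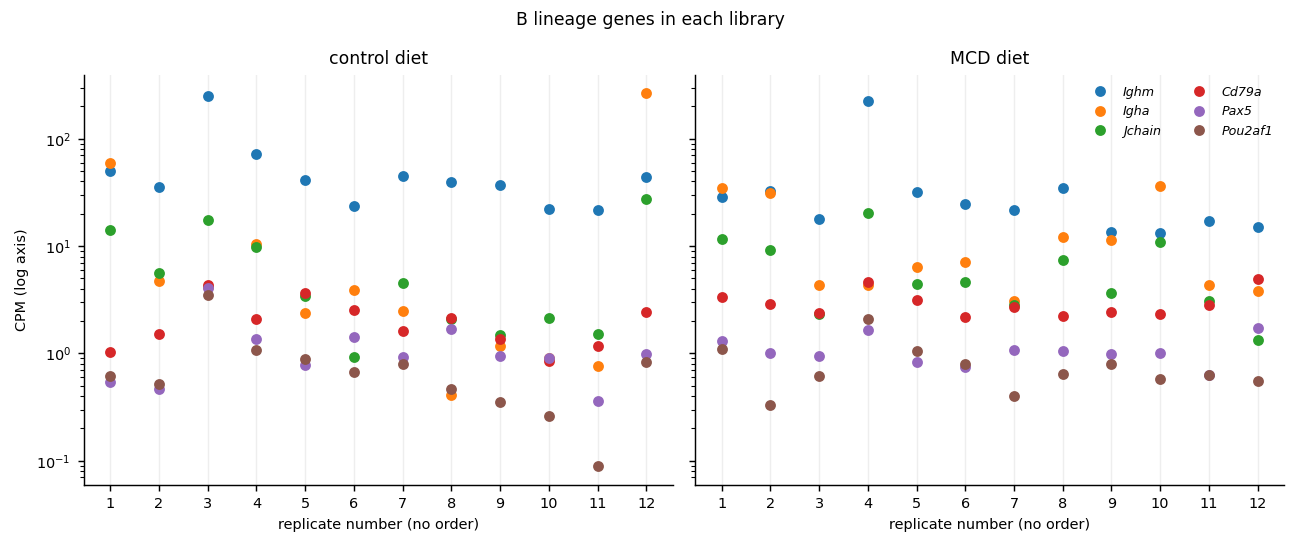
Level in CPM (log axis) of Ighm, Igha, Jchain, Cd79a, Pax5 and Pou2af1 in each library, control livers on the left and MCD livers on the right; the replicate number only names a liver. Ighm reaches 253 CPM in control replicate 3 and 226 CPM in MCD replicate 4, and Igha reaches 266 CPM in control replicate 12.

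Ratios between genes of a pair within a library set 1 gene against another in the same liver, and several pairs hold genes of the same lineage. The prior count is scaled to library size and so ties the ratios of low genes to the scaling. All ratios were taken on log2 CPM with a prior count of 2 and tested by a two-sided permutation test with 100000 resamples. Benjamini-Hochberg adjustment was over the 8 ratios tested of 9 planned. A ratio was tested where both genes averaged at least 5 counts over all 24 libraries, which Ncr1 did not reach. The ratio of Cd79a to Cd3e had a mean of 1.59 ± 0.81 in control livers and 0.38 ± 0.54 in MCD livers (SD, n = 12 each). It was lower by 1.21 (SE 0.28, permutation adjusted p = 0.00128), and all 12 MCD livers lay below the control median. The ratio of Cd8a to Cd4 moved from -0.74 ± 1.18 to 0.93 ± 0.70 (SD, n = 12 each). That difference of 1.67 (SE 0.39, permutation adjusted p = 0.00128) had all 12 MCD livers above the control median. Cd3e, Cd8a and Cd4 did not pass the low-count filter on control libraries alone. Cd8a was at or under the floor in 4 of 12 control livers, so the prior count also enters the control side. The ranges of both ratios overlapped between diets. Cd79a to Cd3e ran from 0.214 to 3.22 in control and from -0.675 to 1.04 in MCD livers. Cd8a to Cd4 ran from -2.64 to 0.870 in control and from 0.0 to 2.19 in MCD livers.

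The ratio of Foxp3 to Cd3e was -1.54 ± 0.91 in control livers and -2.50 ± 0.61 in MCD livers (SD, n = 12 each). The difference of -0.95 (SE 0.32, permutation adjusted p = 0.0206) was -0.63 with a prior count of 0.5 (permutation adjusted p = 0.227), so its call rests on the prior count added to the low Foxp3 counts. Foxp3 averaged at least 5 counts only with MCD livers counted in. The ratio of Pdcd1 to Cd3e was -2.35 ± 0.63 in control livers and -1.70 ± 0.61 in MCD livers (SD, n = 12 each). It differed by 0.66 (SE 0.25, permutation adjusted p = 0.033), and 10 of 12 MCD livers were above the control median. Pdcd1 too averaged at least 5 counts only with MCD livers counted in, so neither difference is evidence of direction. Since Pdcd1 was near 0 in control livers, the prior count sets the control side of this ratio too, and with total counts alone the difference was 0.49 (permutation adjusted p = 0.0871, a setting added after seeing the data). Its adjusted p missed 0.05 without any 1 of control replicates 2, 3, 8 and 10 and MCD replicates 2, 3, 5 and 9, with the difference between 0.55 and 0.76 over all left-out libraries.

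For the other 4 ratios the adjusted p missed 0.05. Cd3e to Ptprc, a T cell gene against the pan-leukocyte gene CD45, differed by 0.48 (SE 0.23, permutation adjusted p = 0.0792), with all 12 MCD livers above the control median. Ccl5 to Cd3e differed by 0.46 (SE 0.27, adjusted permutation p = 0.105) and Jchain to Cd79a by -0.41 (SE 0.55, adjusted permutation p = 0.457). Igha to Ighm, IgA against IgM, differed by 1.76 (SE 0.90, adjusted permutation p = 0.0818), from -3.31 ± 2.54 to -1.54 ± 1.80 (SD, n = 12 each), and 11 of 12 MCD livers lay above the control median. Leaving out 1 library brought 3 of these below 0.05, namely Cd3e to Ptprc without control replicate 7 (0.55) or 12 (0.60), Ccl5 to Cd3e without control replicate 6 (0.57) or 12 (0.55), and Igha to Ighm without control replicate 1 (2.09) or 12 (2.30) or MCD replicate 4 (2.14).

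**Figure D4:**
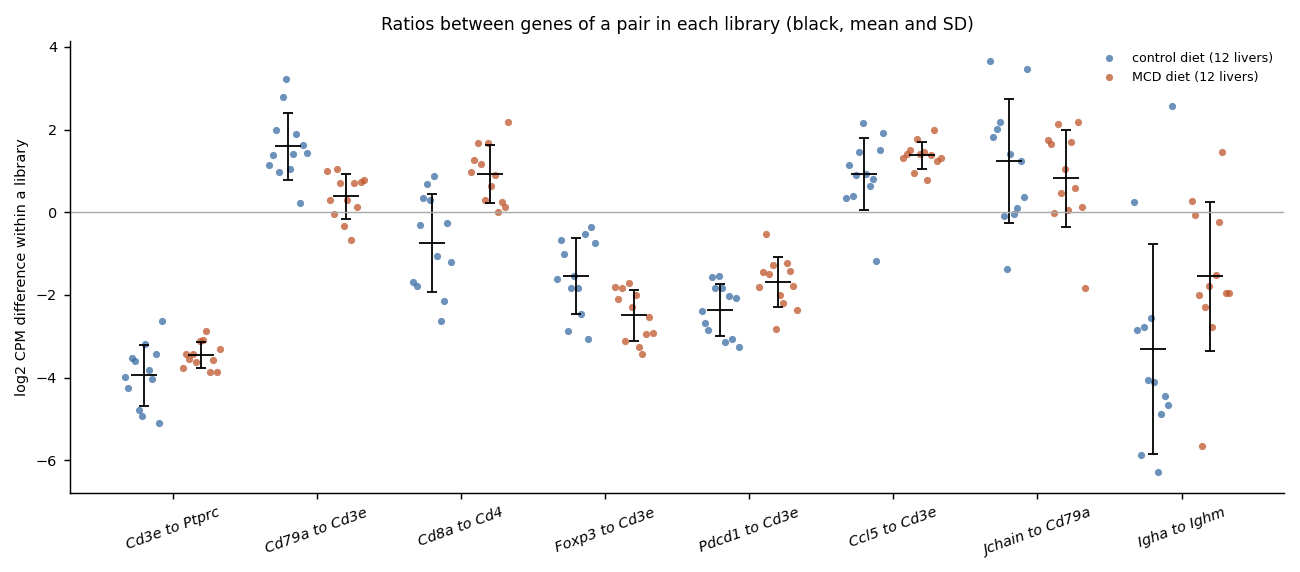
Log2 ratio of the CPM of the genes of a pair (prior count 2) in each library, for 8 pairs; blue points are 12 control livers, orange points 12 MCD livers, and black marks the mean and SD. Cd79a to Cd3e moves down by 1.21 and Cd8a to Cd4 up by 1.67, while Igha to Ighm spreads from -6.29 to 2.58 among control livers.

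Across the livers of 1 diet, 6 relations between members were computed on log2 CPM (permutation p with 100000 resamples, Benjamini-Hochberg over the 6). Cd3e and Nkg7 had Pearson's r of 0.72 in MCD livers (n = 12, permutation p = 0.00904, adjusted 0.0542) and Spearman's rho of 0.74 (permutation p = 0.00828, adjusted 0.0497). Without the 2 livers farthest from the median of Cd3e, r was 0.66 (permutation p = 0.0388, adjusted 0.233), so the adjusted value for r missed 0.05 with and without them, and rho was past 0.05 by a small margin with them. In control livers r was 0.51 (permutation p = 0.0966, adjusted 0.29) and rho 0.60 (permutation p = 0.0416, adjusted 0.125), and r was 0.36 without the 2 farthest. Cd3e with Cd79a gave r of 0.25 in control and -0.05 in MCD livers, with adjusted permutation p of 0.661 and 0.922. Cd79a with Jchain gave r of 0.28 and 0.03, with the same adjusted values.

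Further genes of the same cells were counted in the same way, against the same 19.2% of all tested genes called higher. Of the tested genes of these lists, 2 T cell, 2 cytotoxic and NK cell, 5 B cell and 5 plasma cell genes passed the filter on control libraries alone, of which 1, 1, 3 and 2 were higher, so the counts and medians below are no evidence of direction. Of 25 further T cell genes, 23 had a row by that symbol and 14 were tested, of which 10 were higher and 0 lower, with a median log2 fold change of 1.70. Il7r, the receptor for the survival factor IL-7 that some other immune cells carry, was highest among them in fold change, from 0.439 CPM in control to 7.33 CPM in MCD livers on average (4.04, edgeR FDR 1.18e-12). Ccr7, which guides T cells and dendritic cells to lymph nodes, rose by 1.77 (edgeR FDR 5.39e-08). Cxcr3, a chemokine receptor of type 1 T cells, rose by 1.72 (edgeR FDR 7.48e-08). Tcf7, a factor of naive and memory T cells, averaged 7.03 and 7.83 CPM and was not called (0.15, edgeR FDR 0.411). Thy1, a surface protein of T cells that fibroblasts and neurons also carry, averaged 1.64 and 5.99 CPM and rose by 1.87 (edgeR FDR 2.84e-07), with every MCD liver above every control liver. Tcf7 and Thy1 are the 2 further T cell genes that passed the filter on control libraries alone and are named after their values were seen.

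Of 22 further cytotoxic and NK cell genes, 5 were tested, 4 were higher and 0 lower. Sh2d1b1, the adaptor EAT-2, rose by 3.30 from 0.127 to 1.36 CPM (edgeR FDR 3.91e-08). Klrd1, the CD94 chain of NK cell receptors, rose by 2.15 (edgeR FDR 4.66e-07), and Ctsw, a protease of cytotoxic cells, by 1.77 (edgeR FDR 1.45e-05). The 4 genes of the Klra (Ly49) family on the list averaged at most 0.213 CPM in MCD livers and were not tested.

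Of 19 further B cell genes, 14 were tested, 6 were higher and 0 lower, with a median of 0.76. Those with the lowest FDR were Blnk (1.38, edgeR FDR 4.24e-07), Cd72 (1.47, edgeR FDR 1.12e-06) and Cd22 (1.53, edgeR FDR 3.7e-06). Blnk and Cd72, which myeloid cells also express, averaged 31.7 and 29.5 CPM in MCD livers, where Cd79a averaged 3.01 CPM. Ighd, the constant region of IgD, was not called (-0.36, edgeR FDR 0.249) and is named after its values were seen.

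Of 16 further plasma cell genes, 12 were tested, 3 were higher and 0 lower, with a median of 0.28, a share near that of all tested genes. The 3 were Tnfrsf13b (2.16, edgeR FDR 3.66e-09), a receptor for the B cell factors BAFF and APRIL, Fkbp11 (1.06, edgeR FDR 0.000285) and Derl3 (1.04, edgeR FDR 0.000837), which serve protein folding and quality control in the endoplasmic reticulum. The tested immunoglobulin genes of that list, among them Igkc (-0.27, edgeR FDR 0.666), Ighg2b (0.04, edgeR FDR 0.949) and Ighg2c (0.32, edgeR FDR 0.665), were not called.

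Marker lists of other cell types were counted in the same livers, against 19.2% of all tested genes higher and 19.1% lower. All 8 pan-leukocyte genes rose, with a median log2 fold change of 1.79, and their summed level was 48.6 to 138 CPM in control and 265 to 450 CPM in MCD livers. Of 13 macrophage and monocyte markers 9 rose, with Trem2 at 4.59, and 4 resident Kupffer cell genes fell, with Timd4 at -4.10 (edgeR FDR 1.52e-11 for both). The summed level of the 13 was 211 to 542 CPM in control and 1181 to 2595 CPM in MCD livers. Of them 9 passed the filter on control libraries alone, of which 5 rose. Of the dendritic cell markers 3 of 7 tested rose, but 0 of the 3 that passed the filter on control libraries alone did. All 4 tested granulocyte markers rose, of which 1 passed the filter on control libraries alone. Markers of type 2 innate lymphoid cells were mixed (1 higher, 1 lower of 3 tested), with Il13 listed at 0 in all libraries. That list, which holds Arg1 and Rora, summed to 922 to 1911 CPM in control livers, more than the macrophage and monocyte list. The part of hepatocytes in it was not tested. Hepatocyte markers fell in 3 of 8 cases (summed level 78470 to 182600 CPM in control, 61500 to 88690 CPM in MCD) and endothelial markers in 5 of 7. Cholangiocyte markers rose in 6 of 6 cases, stellate and mesenchymal markers in 6 of 8 with 1 lower, and proliferation genes in 5 of 6. Of the pan-leukocyte, cholangiocyte, stellate and proliferation genes, 7, 4, 8 and 5 passed the filter on control libraries alone. Of these, 7, 4, 6 and 4 rose. Havcr2, Ccl5, Cd4, Lag3, Blnk, Cd72, Tnfrsf13b, Thy1, Il7r and Ccr7 are genes that lymphocytes share with such other cells. The part of the other cells in the levels of these genes was not tested.

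**Figure D5:**
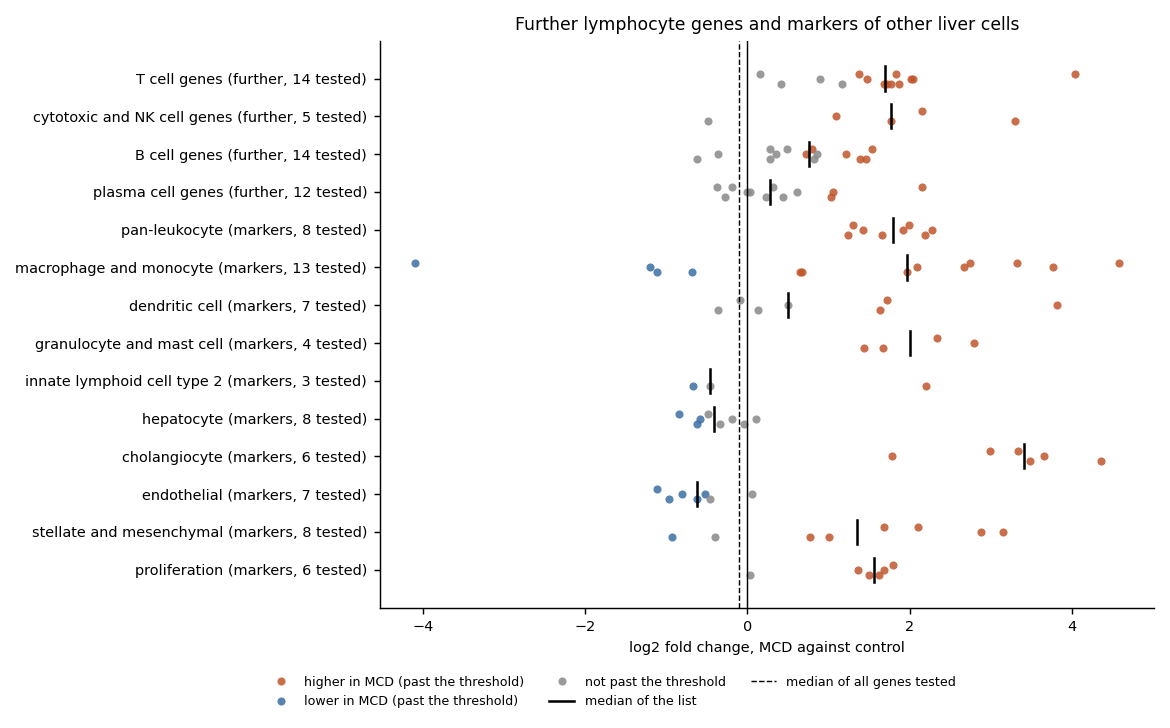
Log2 fold change of MCD against control for each tested gene of the further lymphocyte lists and of marker lists of other liver cells; points are genes (orange higher, blue lower, grey not past the threshold), the bar is the list's median and the dashed line that of all tested genes. Further T cell and cytotoxic genes centre at 1.70 and 1.77, B cell genes at 0.76 and plasma cell genes at 0.28.

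Other rules for calling a gene gave other counts. With an FDR of 0.05 and no fold limit 18 members were higher and 2 lower, against 26.5% and 37.0% of all tested genes. With a log2 limit of 1 there were 15 higher, against 13.2%. With total counts alone 19 were higher and 0 lower, against 32.2% and 6.01%, and the 17 members higher on the TMM scale were all among the 19. The members gained with total counts were Cd4 and Cd79a.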

How the data were processed

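The authors deposited raw read counts per Ensembl gene, 1 column per library and not normalized. Per the labels, total RNA was extracted with Trizol and poly(A) libraries were made. The submitters' processing notes name bcl2fastq, STAR 2.7.3a and build mm10, while the study's methods describe a stranded TruSeq mRNA kit and quantification with PISCES for reads aligned to the human genome. The counting program, the annotation and the use of strand for these mouse counts are not given in the sources used here. All 24 columns matched a sample title and 0 were unused.

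Symbols were assigned by identifier from GENCODE release M21, which named 51745 of 56205 rows, and 4460 identifiers were not in it. For that reason no gene coordinates are given other than those of the RefSeq promoter windows. The 43 members and all lists were chosen with earlier results of these data known. Genes were filtered with filterByExpr by diet, scaled with TMM factors and tested with edgeR 4.0.16 in R 4.3.3 (glmQLFit, glmQLFTest, no covariate). CPM use TMM-scaled library sizes, and CPM per kilobase divide the mean by the union of exons in M21. Within each diet no library pair had a dispersion index under 11.7 (sampling noise gives about 1), so each counted as a separate sample. The biological coefficient of variation was 26.8%. Full statistics were given for up to 4 members of each role, first those past the threshold with the lowest FDR and then those with the highest mean CPM, and for 3 genes of each further list.

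As alternatives, libraries were scaled by total counts alone, by upper-quartile factors or by relative log expression, the filter was dropped or made blind to diet, and DESeq2 1.42.0 or limma-voom (limma 3.58.1) replaced edgeR. Further ones were the replicate number as a block, a covariate from sex-linked genes, 2 other thresholds, a prior count of 0.5, each library left out, and leaving out both libraries with the highest Ighm and ratios on total counts alone, both added after seeing the data. Fits and permutation tests (scipy 1.17.1, Python 3.11.15) were tested on simulated data. Promoters came from RefSeq (GRCm38.p6).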

Additional observations from a re-analysis of the deposited data

How the results depend on the processing

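Of 279 log2 fold changes of members under alternatives other than a left-out library, 247 kept their direction and side of the threshold. The count of members higher stayed within 1.5 times of 17 except with the filter blind to diet, which tested 18 members and called 9. The count of members lower was 2 with an FDR of 0.05 without a fold limit and with the sex-linked score (Icos and Tox), and 0 with no filter, the blind filter, a log2 limit of 1, total counts alone, upper-quartile factors and relative log expression factors. DESeq2 and the fit without both high-Ighm libraries also called 1 lower, but named Ighm in place of Icos. The direction turned for Zap70 (total counts 0.011), Pax5 (total counts 0.18, limma-voom 0.10, both high-Ighm libraries left out 0.17), Igha (DESeq2 0.78, limma-voom 1.22), Jchain (upper-quartile 0.026, total counts 0.31, limma-voom 0.27) and Pou2af1 (upper-quartile 0.061, total counts 0.25, limma-voom 0.22, sex-linked score 0.053, both high-Ighm libraries left out 0.23), none of which was called in either direction. A prior count of 0.5 moved Cd3e to Ptprc to 0.62, past the threshold, and Foxp3 to Cd3e to -0.63, no longer past it, and total counts alone moved Pdcd1 to Cd3e to 0.49 (permutation adjusted p = 0.0871), no longer past it. With total counts alone Pearson's r of Cd3e with Nkg7 in MCD livers was 0.76, past the threshold, and that of Cd3e with Cd79a 0.033, with the sign turned. Apart from the libraries named with Ighm and Igha, the cause was not tested.

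Equal replicate numbers were not taken to pair the libraries. The correlation of deviations was over 0.1 in 8 of 12 pairs of equal number (range -0.28 to 0.35, median 0.233, against -0.059 for other pairs), and 2 of 12 control libraries correlated best with their own number. The replicate block called 16 members higher and 1 lower, without Gzmb (0.94, edgeR FDR 0.0268). In the block the fold changes of Pax5 (0.046), Igha (1.10), Jchain (0.33) and Pou2af1 (0.15) turned in direction, and Pdcd1 to Cd3e, at 0.66, no longer passed (permutation adjusted p = 0.0563).

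Fits without 1 library at a time gave 0 to 2 members lower and 16 to 19 higher. Fold changes ran from -0.25 to 0.24 for Pax5, -1.29 to 0.058 for Ighm, -1.38 to 0.74 for Igha, -0.38 to 0.28 for Jchain and -0.28 to 0.46 for Pou2af1. Ratios ran from 0.55 to 0.76 for Pdcd1 to Cd3e, 0.27 to 0.57 for Ccl5 to Cd3e, 0.38 to 0.60 for Cd3e to Ptprc and 1.49 to 2.30 for Igha to Ighm, each crossing the threshold for at least 1 library. Depth limits the 14 members below the filter, whose control counts lay mostly near the floor.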
